A study of Mus musculus with 12 samples.

Results

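The 10 genes described here are drivers, markers, and inhibitors of the cell cycle: the D-type cyclin genes Ccnd1 and Ccnd2, the cyclin-dependent kinase (CDK) inhibitor genes Cdkn1a, Cdkn1b, Cdkn2a, and Cdkn2b, the proliferation genes Mki67, Top2a, and Cdk1, and the growth gene Myc. They were taken by symbol from a table of read counts per gene, and are 10 of its 52636 genes. The table covers bulk RNA-seq of smooth muscle cells (SMCs) of the mouse aorta that were sorted for green fluorescent protein (GFP). All mice were 12 weeks old and male, carried the mT/mG reporter and a tamoxifen-inducible Cre (Myh11-CreERT2) driven by the promoter of a smooth muscle myosin gene, and received tamoxifen for 5 days. Cells were sorted about 1 week after the first dose of tamoxifen. In Tgfbr1/2iSMCKO mice (KO in the plots), floxed alleles of both TGF-β receptor genes (Tgfbr1f/f.Tgfbr2f/f) were present as well, whereas GFPiSMC controls (Myh11-CreERT2.mT/mG) had no floxed receptor allele. Each of 3 GFPiSMC and 3 Tgfbr1/2iSMCKO mice gave a library of the ascending aorta and arch (ASC) and a library of the descending thoracic aorta (DESC), so that 4 groups held 3 libraries each. The controls lacked the floxed receptor alleles, so mouse line and deletion cannot be told apart. As the Cre transgene lies on the Y chromosome, no females were studied.

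Progression from G1 to S phase depends on D-type cyclins, which activate CDK4 and CDK6, and on the phosphorylation of retinoblastoma proteins that follows. The inhibitors encoded by Cdkn1a (p21) and Cdkn1b (p27) bind cyclin-CDK complexes, while those encoded by Cdkn2a (p16) and Cdkn2b (p15) bind CDK4 and CDK6. In many cell types TGF-β induces Cdkn1a and Cdkn2b and represses Myc, which is known as its cytostatic response. SMCs of the adult aorta divide rarely.

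Libraries held 20467027 to 31392396 counts (median 27351101), with 25007747 to 31392396 in GFPiSMC and 20467027 to 30354994 in Tgfbr1/2iSMCKO, and came from 9208 to 20000 sorted cells. Smooth muscle markers were abundant in every library, with summed levels of 39830 to 47850 library-size-scaled counts (CPM) in GFPiSMC and 33930 to 42800 in Tgfbr1/2iSMCKO. None of the 8 was called by edgeR or DESeq2, and 2 had an unadjusted p under 0.05, Tagln (log2 fold change −0.32, adjusted p = 0.0699) and Acta2 (−0.23, adjusted p = 0.264). The deposited counts did not show the loss of the receptors: Tgfbr1 had a log2 fold change of 0.10 (adjusted p = 0.79) and Tgfbr2 of −0.26 (adjusted p = 0.234), on whole-gene counts that include exons outside the floxed parts. CPM are counts relative to TMM-adjusted library totals, and a level in bulk RNA cannot tell fewer cells of a type from less RNA per cell.

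The sequences before the starts of 5 of the genes are shown because Mki67, Top2a, and Cdk1 are transcribed together in dividing cells, and because Cdkn1a and Cdkn2b are the genes that differed between genotypes. RefSeq windows (GRCm38.p6) were found for 7 of the 10 genes, with 9 starts in all, and the 250 bases before each start were searched on both strands for 5 motifs. These were the cell cycle homology region (CHR, TTTGAA), the NF-Y box (CCAAT), the Sp1 box (GGGCGG), the Smad box (CAGAC), and the E-box of Myc (CACGTG). Capitals mark the matches on either strand, and no matches overlapped. Cdkn1a is shown at its downstream start (chr17:29093519-29093768, plus strand), followed by Cdkn2b (chr4:89311033-89311282), Mki67 (chr7:135716380-135716629), Top2a (chr11:99024190-99024439), and Cdk1 (chr10:69352913-69353162), which all lie on the minus strand and are written 5′ to 3′ along the gene.
Cdkn1a: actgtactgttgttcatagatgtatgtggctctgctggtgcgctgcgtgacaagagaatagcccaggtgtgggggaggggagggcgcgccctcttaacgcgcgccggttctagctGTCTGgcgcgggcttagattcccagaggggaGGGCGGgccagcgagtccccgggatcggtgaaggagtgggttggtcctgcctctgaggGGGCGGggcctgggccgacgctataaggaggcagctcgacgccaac
Cdkn2b: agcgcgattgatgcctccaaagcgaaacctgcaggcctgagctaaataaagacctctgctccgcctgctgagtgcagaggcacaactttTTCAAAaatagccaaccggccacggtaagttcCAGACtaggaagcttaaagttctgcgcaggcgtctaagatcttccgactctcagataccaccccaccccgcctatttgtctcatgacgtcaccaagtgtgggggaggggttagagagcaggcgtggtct
Mki67: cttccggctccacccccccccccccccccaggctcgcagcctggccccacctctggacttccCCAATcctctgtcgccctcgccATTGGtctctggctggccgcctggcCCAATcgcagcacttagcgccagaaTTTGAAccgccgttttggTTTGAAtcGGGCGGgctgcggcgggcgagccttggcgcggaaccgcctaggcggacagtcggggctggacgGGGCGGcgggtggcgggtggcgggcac
Top2a: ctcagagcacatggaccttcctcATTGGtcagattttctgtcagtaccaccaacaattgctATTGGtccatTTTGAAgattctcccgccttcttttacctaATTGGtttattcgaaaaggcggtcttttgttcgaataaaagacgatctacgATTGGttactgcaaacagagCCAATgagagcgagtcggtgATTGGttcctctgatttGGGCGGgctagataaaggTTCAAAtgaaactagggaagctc
Cdk1: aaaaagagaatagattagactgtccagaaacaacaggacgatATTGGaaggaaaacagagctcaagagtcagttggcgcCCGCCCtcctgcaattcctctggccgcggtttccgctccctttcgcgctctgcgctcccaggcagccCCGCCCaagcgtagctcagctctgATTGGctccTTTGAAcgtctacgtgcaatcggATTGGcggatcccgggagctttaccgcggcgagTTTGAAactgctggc

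Mki67, Top2a, and Cdk1 each held 2 CHR matches in this window, against 2 or more in 1.81% of 32851 promoter windows of the mouse. A single CHR match or more was present in 16% of these windows. The NF-Y box occurred 3 times in Mki67, 6 times in Top2a, and 3 times in Cdk1. Of all windows, 33.8% had at least 1 NF-Y box, 10.1% had 2 or more, and 5.55% had both motifs, CHR and NF-Y. Of the inhibitors, Cdkn1a held 2 Sp1 boxes and 1 Smad box at its downstream start and 1 Smad box at its upstream start, and Cdkn2b held 1 Smad box and 1 CHR match. Sp1 boxes stood in 32.7% of windows and Smad boxes in 42.2%, so their presence was common. Cdkn1b held 2 NF-Y boxes and 1 Sp1 box. No E-box, present in 6.02% of windows, was matched before these 9 starts. A match describes letters in this window and is no evidence of binding.

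**Figure D1:**
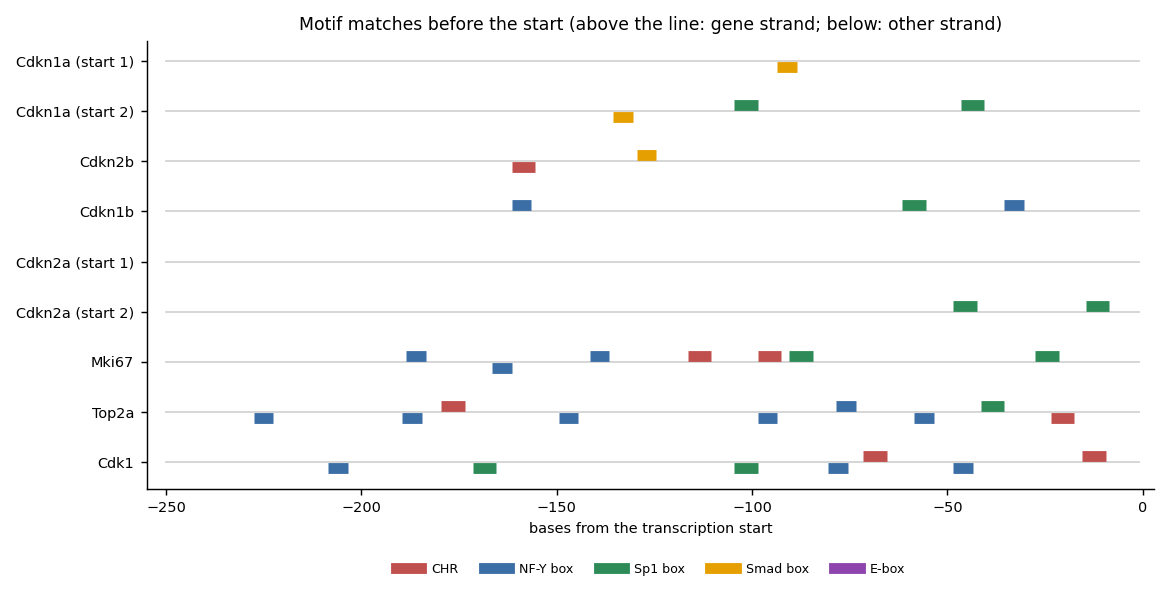
Matches to 5 motifs in the 250 bases before 9 starts of 7 genes, by distance from the start in bases. CHR matches (red) and NF-Y boxes (blue) stand together in Mki67, Top2a, and Cdk1, while Smad boxes (orange) appear only in Cdkn1a and Cdkn2b among these genes.

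The cells carried the 10 transcripts at very different levels. Per kb of exon, Ccnd2 was highest (58.9 CPM per kb, mean of 12 libraries), followed by Cdkn1a (28.7), Cdkn1b (9.18), Cdkn2b (7.28), and Myc (2.75). Below 1 CPM per kb were Ccnd1 (0.761), Cdk1 (0.219), Top2a (0.118), Mki67 (0.0849), and Cdkn2a (0.0269). In GFPiSMC libraries the ranges of neighbours mostly overlapped: Ccnd2 ran from 48.8 to 91.4 CPM per kb and Cdkn1a from 29.9 to 50.1. Likewise Cdkn1b ran from 6.34 to 10.1 and Cdkn2b from 5.40 to 12.9. The ranges of Cdkn2b and Myc (1.46 to 2.97) did not overlap in these libraries, nor did those of Myc and Ccnd1 (0.335 to 0.908). Cdk1 (0.0837 to 0.630), Top2a (0.0183 to 0.285), and Mki67 (0.0418 to 0.224) overlapped one another.

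**Figure D2:**
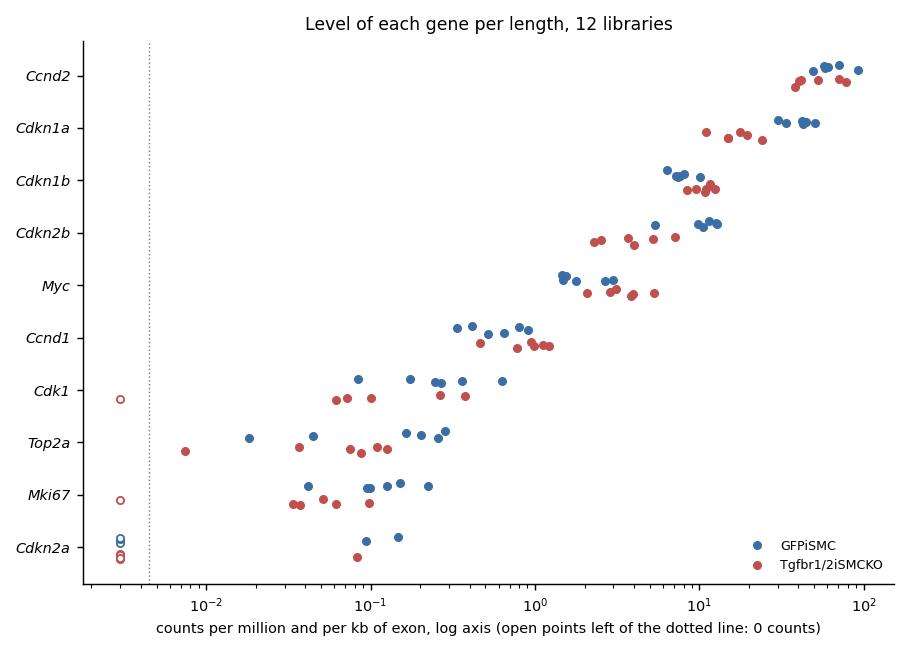
Level of each gene in CPM per kb of exon on a log axis, 1 point per library, in GFPiSMC (blue) and Tgfbr1/2iSMCKO (red), with libraries at 0 counts as open points at the left edge. Ccnd2 and Cdkn1a lead, and Mki67, Top2a, Cdk1, and Cdkn2a lie below 1 CPM per kb in every library.

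Tgfbr1/2iSMCKO was compared with GFPiSMC over all 12 libraries, with segment in the model, to ask how cell cycle genes responded. The CDK inhibitor genes Cdkn1a and Cdkn2b fell more than 2-fold by their fitted values. Of the 9 genes that passed the low-count filter, these 2 were called at an adjusted p under 0.05 (edgeR, quasi-likelihood), both lower. For comparison, 5.03% of all 22320 genes tested were called, and 3.23% were called lower. No cyclin or proliferation gene was called, nor were Cdkn1b and Myc, although 5 of the 9 genes had an unadjusted p under 0.05 (16.1% of all genes). The median log2 fold change of all genes was 0.04.

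Cdkn1a (chr17:29090976-29100727, plus strand) encodes p21, an inhibitor of cyclin-CDK complexes. In GFPiSMC its level was 106, 119, and 149 CPM in ASC replicates 1 to 3 and 152, 178, and 158 CPM in DESC replicates 1 to 3. In Tgfbr1/2iSMCKO it was 69.5, 63.0, and 85.5 CPM in ASC and 52.9, 39.0, and 52.8 CPM in DESC. Every Tgfbr1/2iSMCKO library thus lay below every GFPiSMC library, a separation seen for 4.39% of all genes and for no other of the 9. The means were 144 ± 26.5 CPM and 60.5 ± 16.1 CPM (SD, 6 libraries of 3 animals each). The log2 fold change was −1.26 (adjusted p = 0.0012, SE 0.19), or 2.40-fold lower. A test against a 2-fold change did not call it (adjusted p = 1). Of its 3553 exon bases, 273 overlap a gene on the other strand (AC167363.2), whose reads cannot be told apart because the strand setting of the counting is not stated.

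Cdkn2b (chr4:89306299-89311039, minus strand) encodes p15, an inhibitor of CDK4 and CDK6, and was expressed at a lower level. In GFPiSMC it measured 17.5, 17.9, and 15.8 CPM in ASC and 13.6, 7.50, and 14.5 CPM in DESC. In Tgfbr1/2iSMCKO it measured 7.24, 5.53, and 9.92 CPM in ASC and 3.48, 3.18, and 5.13 CPM in DESC. The genotypes overlapped only through GFPiSMC DESC replicate 2, which was below Tgfbr1/2iSMCKO ASC replicate 3. The means were 14.5 ± 3.80 CPM and 5.75 ± 2.52 CPM, and the log2 fold change was −1.38 (adjusted p = 0.00262, SE 0.23), or 2.61-fold lower. With a test against a 2-fold change the adjusted p was 0.925.

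Cdkn1b and Cdkn2a, the other inhibitors, were not called. Cdkn1b (chr6:134920401-134925513, plus strand), which encodes p27, ranged from 28.9 to 45.8 CPM (median 34.2) in GFPiSMC and from 38.2 to 56.3 CPM (median 49.3) in Tgfbr1/2iSMCKO. Its log2 fold change of 0.44 (SE 0.15) missed the threshold (adjusted p = 0.118), and DESeq2 gave an adjusted p of 0.029, with 4 of the 9 genes and 9.11% of all genes called by that tool. Cdkn2a (chr4:89274471-89294653, minus strand) encodes p16 and, from another start, the p53 activator ARF, which gene counts do not tell apart. It had 10 counts in all, in 3 of the 12 libraries: 3 and 5 counts in GFPiSMC ASC replicates 1 and 2, and 2 counts in Tgfbr1/2iSMCKO ASC replicate 2. The 6 DESC libraries had 0 counts. A count of 0 allows up to 3 counts, which is 0.101 to 0.124 CPM in the DESC libraries, so no difference in Cdkn2a was detectable at this depth.

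The D-type cyclins did not pass the test. Ccnd2 (chr6:127125162-127152193, minus strand), the dominant D-type cyclin transcript of these cells, ranged from 459 to 860 CPM (median 559) in GFPiSMC and from 357 to 733 CPM (median 441) in Tgfbr1/2iSMCKO. Its log2 fold change was −0.26 (adjusted p = 0.622, SE 0.19). Tgfbr1/2iSMCKO replicate 3 was the exception within its genotype, with 665 CPM in ASC and 733 in DESC against at most 494 CPM in the other 4 libraries. Without this animal the log2 fold change was −0.58 and the adjusted p 0.0475, so that Ccnd2 was the third gene called. Ccnd1 (chr7:144929931-144939925, minus strand) ranged from 1.58 to 4.28 CPM (median 2.75) in GFPiSMC and from 2.19 to 5.70 CPM (median 4.57) in Tgfbr1/2iSMCKO, with a log2 fold change of 0.61 (adjusted p = 0.389, SE 0.32). Of its 4709 exon bases, 1100 overlap LTO1 on the other strand, and of the 9409 of Ccnd2, 740 overlap Gm43126 and 9330179D12Rik.

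Myc (chr15:61985391-61990374, plus strand), a transcription factor that promotes growth and S-phase entry, ranged from 3.98 to 8.06 CPM (median 4.50) in GFPiSMC and from 5.61 to 14.4 CPM (median 9.47) in Tgfbr1/2iSMCKO. Tgfbr1/2iSMCKO ASC replicate 2 was highest and ASC replicate 3 was lowest in that genotype. The log2 fold change of 0.83 (SE 0.27) had an unadjusted p of 0.00981 and an adjusted p of 0.120, whereas DESeq2 gave an adjusted p of 0.0276. Myc therefore passed by one tool and not by the other.

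The proliferation genes were rare transcripts in both genotypes. Mki67 (chr7:135689784-135716361, minus strand), a nuclear protein of cycling cells, had 12 to 56 counts per library in GFPiSMC and 0 to 24 in Tgfbr1/2iSMCKO. Top2a (chr11:98992943-99024189, minus strand), the topoisomerase of S and G2 phase, had 4 to 67 and 2 to 35 counts, and Cdk1 (chr10:69335146-69352938, minus strand), the kinase of mitotic entry, had 10 to 81 and 0 to 38. All 3 had lower mean levels in Tgfbr1/2iSMCKO. The means in GFPiSMC and Tgfbr1/2iSMCKO were 1.24 ± 0.619 and 0.473 ± 0.329 CPM for Mki67, 1.46 ± 0.991 and 0.664 ± 0.401 CPM for Top2a, and 1.45 ± 0.932 and 0.717 ± 0.704 CPM for Cdk1. The ranges overlapped for each gene. Log2 fold changes were −1.38 (adjusted p = 0.307, SE 0.64) for Mki67, −1.03 (adjusted p = 0.563, SE 0.70) for Top2a, and −1.15 (adjusted p = 0.589, SE 0.81) for Cdk1 in this edgeR fit. DESeq2 called none of the 3 over 12 libraries, but called Top2a with counts summed per animal and Cdk1 in DESC, as given below. The libraries at 0 were Tgfbr1/2iSMCKO DESC replicate 3 for Mki67, where 3 counts would be 0.101 CPM, and DESC replicate 2 for Cdk1, where they would be 0.123 CPM. Of the 9013 exon bases of Top2a, 122 overlap Gm23451 on the same strand.

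**Figure D3:**
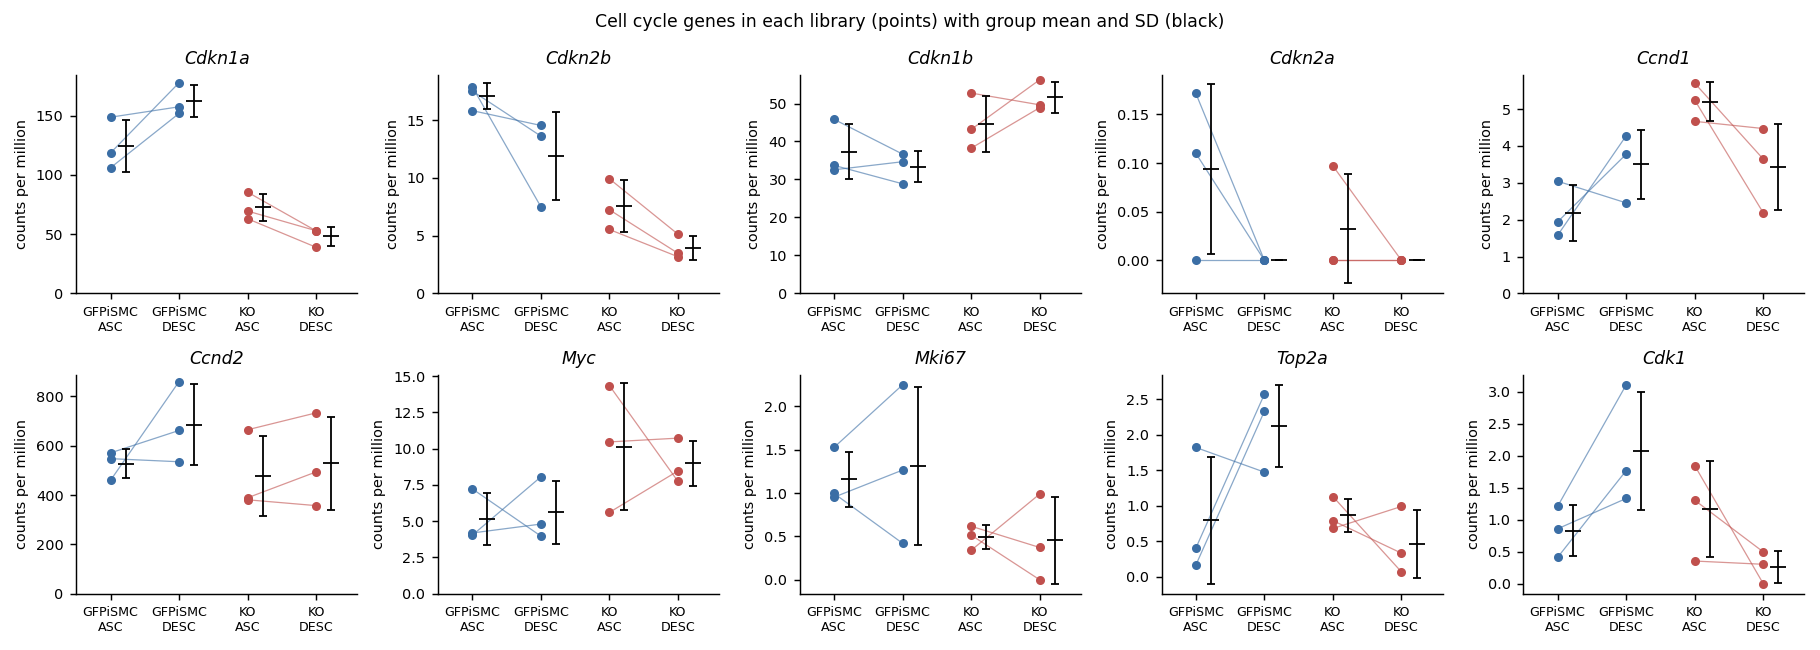
Level of the 10 genes in CPM in each library (points), with lines joining the segments of 1 animal and black bars for the group mean and SD (3 libraries per group; some SDs reach below 0). All 6 Tgfbr1/2iSMCKO points (KO, red) of Cdkn1a lie below the GFPiSMC points (blue), and the scales of Mki67, Top2a, Cdk1, and Cdkn2a stay within a few CPM.

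Both libraries of an animal share that animal, so the comparison was repeated with counts summed per animal, where 3 animals stood against 3. Mean Cdkn1a levels per animal were 129, 148, and 153 CPM in GFPiSMC and 61.2, 51.0, and 69.1 CPM in Tgfbr1/2iSMCKO. Mean Cdkn2b levels were 15.6, 12.7, and 15.2 CPM and 5.36, 4.35, and 7.53 CPM. Animals of the genotypes did not overlap for either gene. Cdkn1a was the 1 gene of the 9 called (log2 fold change −1.23, adjusted p = 0.0127, SE 0.17), against 1.86% of 24275 genes, and DESeq2 called 4 (Cdkn1a, Cdkn2b, Myc, and Top2a; 4.84% of all genes). Without GFPiSMC replicate 2, GFPiSMC replicate 3, or Tgfbr1/2iSMCKO replicate 1, its adjusted p was 0.0886, 0.075, and 0.0848, and no gene of the set was called. Cdkn2b was 2.47-fold lower by its fitted value (adjusted p = 0.0635), and an adjusted p of 0.0161 without Tgfbr1/2iSMCKO replicate 3. Levels per animal did not overlap for 8 of the 9 genes, all but Ccnd2, against 18.8% of all genes. Myc animals measured 6.04, 4.50, and 5.60 CPM in GFPiSMC and 10.6, 11.1, and 7.04 CPM in Tgfbr1/2iSMCKO. Top2a animals measured 1.49, 1.65, and 1.25 CPM and 0.560, 0.835, and 0.598 CPM (unadjusted p = 0.0107, adjusted p = 0.207), and DESeq2 gave an adjusted p of 0.0385 for Top2a and of 0.027 for Myc. An exact permutation test of a single gene over 3 against 3 animals cannot give a two-sided p below 0.1.

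**Figure D4:**
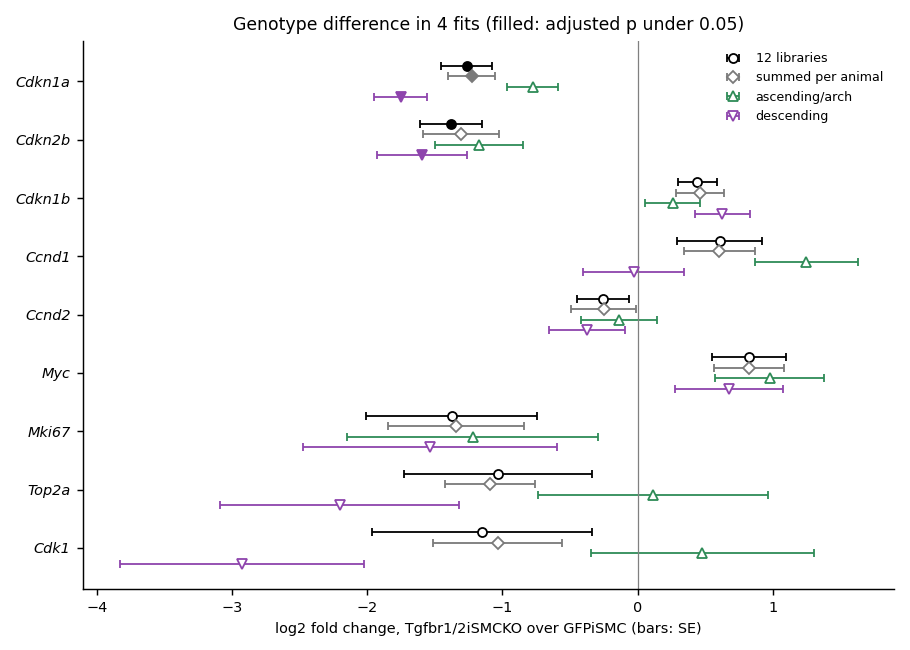
Log2 fold change of Tgfbr1/2iSMCKO over GFPiSMC with its SE in 4 fits (12 libraries, counts summed per animal, ASC, and DESC), filled where the adjusted p was under 0.05. Cdkn1a and Cdkn2b lie left of 0 in all 4 fits. Cdk1, Top2a, and Ccnd1 lie on different sides in ASC and DESC, but Cdk1 and Top2a in ASC and Ccnd1 in DESC are within their SE of 0.

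Within the ascending aorta and arch, no gene of the 9 was called by edgeR, 4 had an unadjusted p under 0.05, and 1.41% of all genes were called (11.4% unadjusted). DESeq2 called Cdkn1a, Cdkn2b, and Ccnd1, 3 of the 9 against 4.07% of all genes. Libraries of the genotypes did not overlap for 4 of the 9 genes, against 19.0% of all genes: Ccnd1 was higher, and Cdkn1a, Cdkn2b, and Mki67 were lower in Tgfbr1/2iSMCKO. Ccnd1 measured 3.04, 1.58, and 1.94 CPM in GFPiSMC and 4.67, 5.24, and 5.70 CPM in Tgfbr1/2iSMCKO, a log2 fold change of 1.25 (adjusted p = 0.172, SE 0.38). The log2 fold change of Cdkn1a was −0.78 (adjusted p = 0.0729, SE 0.19) and that of Cdkn2b was −1.17 (adjusted p = 0.122, SE 0.33).

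Within the descending aorta, Cdkn1a and Cdkn2b fell more than 3-fold. They were the 2 genes of the 9 called, against 1.72% of all genes in either direction and 1.21% lower. The log2 fold change of Cdkn1a was −1.75 (adjusted p = 0.000472, SE 0.19), or 3.37-fold lower, and that of Cdkn2b was −1.59 (adjusted p = 0.0306, SE 0.33), or 3.02-fold lower. The call of Cdkn2b held in 5 of 12 alternatives, with an adjusted p of up to 0.439 in the others. It ended without GFPiSMC replicate 1 or 3 or Tgfbr1/2iSMCKO replicate 1 or 2 (adjusted p = 0.113 to 0.206). It also ended with DESC fitted alone (adjusted p = 0.148), with a replicate block in that fit, and by library size only. Libraries did not overlap for 5 of the 9 genes, against 14.9% of all genes, with Cdkn1a, Cdkn2b, Top2a, and Cdk1 lower and Cdkn1b higher. Cdk1 measured 3.11, 1.33, and 1.77 CPM in GFPiSMC and 0.497, 0, and 0.304 CPM in Tgfbr1/2iSMCKO, from 81, 38, and 44 counts and 12, 0, and 9 counts. Its log2 fold change was −2.93 (adjusted p = 0.177, SE 0.90), and DESeq2 called it as well (adjusted p = 0.013), with 4.06% of all genes called. Ccnd1 did not separate here, with a log2 fold change of −0.03 (SE 0.37).

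The difference of the genotype effect between segments was tested itself. No gene of the 9 was called and 0 of all genes were (0%), while DESeq2 called none of the 9 and 0.0358% of all genes. At an unadjusted p under 0.05 stood 3 of the 9 against 2.95% of all genes. These were Cdkn1a (DESC minus ASC −0.98, SE 0.27, log2 scale), Cdk1 (−3.41, SE 1.22), and Ccnd1 (−1.28, SE 0.53), with an adjusted p of 1 for each after rounding. A difference between segments was therefore not shown.

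Between the segments of 1 genotype, no gene of the 9 was called. In GFPiSMC the share called was 0.376% of all genes by edgeR and 1.28% by DESeq2, and 0 genes of the set reached an unadjusted p under 0.05 (5.98% of all genes). In Tgfbr1/2iSMCKO the shares were 0.112% and 0.739%, and 3 genes of the set reached an unadjusted p under 0.05 (3.68% of all genes). These 3 were Cdkn1a (DESC over ASC −0.59, SE 0.19), Cdkn2b (−0.95, SE 0.33), and Cdk1 (−2.09, SE 0.89). DESC and ASC libraries of GFPiSMC did not overlap for 3 of the 9 genes (13.0% of all genes), with Cdkn1a and Cdk1 higher and Cdkn2b lower in DESC. Those of Tgfbr1/2iSMCKO did not overlap for 3 (7.24%), with Ccnd1, Cdkn1a, and Cdkn2b lower in DESC. Within animals, Cdkn1a was higher in DESC than in ASC in all 3 GFPiSMC mice (log2 ratio 0.52, 0.59, and 0.08) and lower in all 3 Tgfbr1/2iSMCKO mice (−0.39, −0.69, and −0.70). Cdkn2b was lower in DESC in all 6 animals, by −0.12 to −1.25 on the log2 scale. The summed level of fibroblast markers was also lower in DESC, at 62.8 to 75.0 CPM against 117 to 166 CPM in GFPiSMC and at 22.6 to 56.5 against 86.9 to 247 CPM in Tgfbr1/2iSMCKO. Its part in these values was not tested.

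Other genes of the cell cycle machinery were described by lists. Among 4 further CDK inhibitor genes, Cdkn2c, which encodes p18, rose from 6.78 ± 2.29 to 11.6 ± 3.29 CPM (6 libraries each; log2 fold change 0.79, adjusted p = 0.0465), and the other 3 were not called, with log2 fold changes from 0.09 to 0.43. The call of Cdkn2c held in 7 of 17 alternatives, and not with counts summed per animal. Of 9 further G1 cyclin and kinase genes, 1 fell and none rose: Ccne2, the E-type cyclin of S-phase entry, went from 14.9 ± 1.49 to 8.64 ± 2.72 CPM (log2 fold change −0.79, adjusted p = 0.0471). It held in 8 of 17 alternatives, and not with counts summed per animal. Of its 3495 exon bases, 609 overlap Ints8 on the other strand. Cdk6 and Cdk7 had log2 fold changes of −0.42 and −0.43 (adjusted p = 0.101 and 0.113). The median of these 9 was −0.10, and that of the 4 inhibitors was 0.32, against 0.04 for all genes.

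Retinoblastoma proteins and E2F factors bind together to hold cell cycle genes off in resting cells, with Rbl2 (p130) as a main partner in quiescence. Of 19 genes tested, 2 rose and none fell, with a median log2 fold change of −0.14. Rbl2 rose from 86.8 ± 12.2 to 132 ± 23.0 CPM (log2 fold change 0.61, adjusted p = 0.0228), and Tfdp2, a dimerization partner of E2F, rose from 13.3 ± 3.69 to 28.1 ± 11.5 CPM (1.04, adjusted p = 0.0413). They held in 10 and 8 of 17 alternatives, and neither with a block for the replicate number (adjusted p = 0.0502 and 0.0725). With counts summed per animal, neither was called. In Rbl2, 693 and 892 of 7558 exon bases overlap Aktip and Gm45464 on the other strand.

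Among 21 DNA replication genes, 1 fell and none rose, with a median log2 fold change of 0.25. The 1 gene was Tk1, the thymidine kinase of S phase, which fell from 1.92 to 5.72 CPM (median 3.92) in GFPiSMC to 0.166 to 1.15 CPM (median 0.489) in Tgfbr1/2iSMCKO (log2 fold change −2.75, adjusted p = 0.00177) and held in all 17 alternatives. Pcna and Gins2, a replication clamp and a helicase subunit, had log2 fold changes of 0.48 and 0.74 (adjusted p = 0.129 and 0.0918). Most exon bases of Gins2 (2758 of 4097) overlap Gse1 on the other strand, so its value is uncertain. Of the exon bases of Tk1, 83 of 5198 overlap Afmid on the other strand.

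Most mitosis genes had lower fitted values, while the calls went both ways. Of 28 tested, Mki67, Top2a, and Cdk1 included, 22 had log2 fold changes below 0 and 6 above. In ASC 13 of the 28 were below 0 (median 0.11) and in DESC 24 (median −0.94), but none was called for the difference between segments. Of the 25 tested in addition to Mki67, Top2a, and Cdk1, 2 rose and 2 fell, with a median log2 fold change of −0.38. Of all genes, 5.03% were called. Anln, which encodes the cytokinesis scaffold anillin, was by far the most abundant of them and fell from 221 ± 30.2 to 74.2 ± 13.7 CPM (log2 fold change −1.58, adjusted p = 2.12e-06). Aurka, a kinase of the spindle poles, fell from 2.17 ± 1.12 to 0.354 ± 0.219 CPM (−2.63, adjusted p = 0.0229). Bub1b, a spindle checkpoint kinase, rose from 0.553 ± 0.274 to 4.23 ± 1.91 CPM (2.87, adjusted p = 0.00141), and Cenpa, the centromere histone, rose from 1.98 ± 0.922 to 6.47 ± 2.57 CPM (1.74, adjusted p = 0.0184). Anln and Bub1b held in all 17 alternatives, Cenpa in 11 of 17, and Aurka in 10 of 16. With counts summed per animal, Anln, Aurka, and Bub1b were called and Cenpa was not. Summed over the list, levels were 227 to 322 CPM in GFPiSMC and 103 to 162 CPM in Tgfbr1/2iSMCKO, of which Anln supplied most.

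Genes of the Myc network and of the cytostatic response stood beside Myc. In the Myc network none of 10 was called, 2 had an unadjusted p under 0.05 (Myc itself and its antagonist Mxd1, log2 fold change 0.40, adjusted p = 0.269), and the median was 0.08. DESeq2 called 1 of them, Myc. Of 8 cytostatic response genes, 2 fell (Cdkn1a and Cdkn2b) and 1 rose. The one that rose was Id2, an inhibitor of differentiation, from 1321 ± 158 to 1762 ± 212 CPM (log2 fold change 0.42, adjusted p = 0.0373). It held in 8 of 17 alternatives, and not with counts summed per animal.

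**Figure D5:**
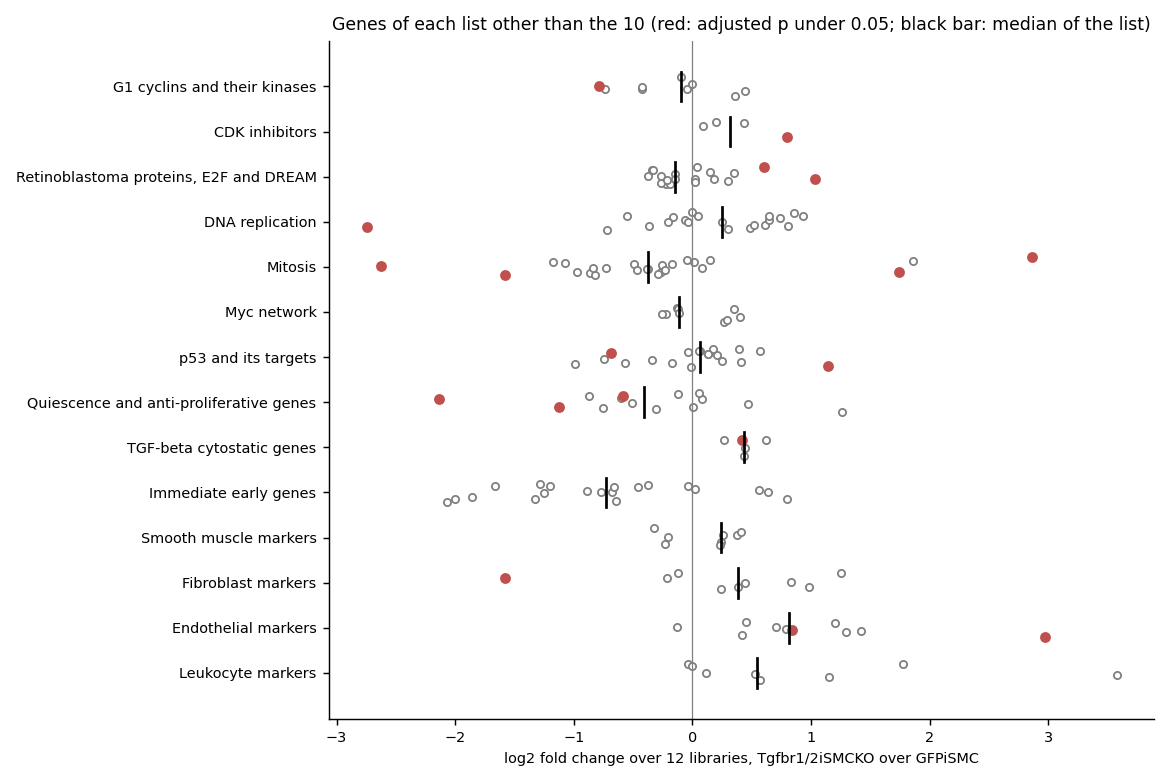
Log2 fold change over 12 libraries for the genes of 14 lists other than the 10 genes described above, red where the adjusted p was under 0.05, with a black bar at the median of the list. Most mitosis genes lie below 0, with called genes on both sides, and the immediate early genes have a median of −0.73.

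Genes that respond to cell isolation and to other cell types were measured in the same libraries. Immediate early genes had a summed level of 1065 to 2910 CPM in GFPiSMC and 630 to 2672 CPM in Tgfbr1/2iSMCKO. Of 20, none was called by the main edgeR fit over 12 libraries, and 10 had an unadjusted p under 0.05. DESeq2 called 7, a replicate block gave 7, and the median log2 fold change was −0.73. With counts summed per animal, edgeR called 1 as lower, Egr2, named after its value was seen. Over 12 libraries, Egr1 (−0.89, adjusted p = 0.0582) and Fosl2 (−1.25, adjusted p = 0.0649) had the smallest p. Their part in the fall of Cdkn1a and Cdkn2b was not tested. Endothelial markers summed to 85.9 to 125 CPM in GFPiSMC and 91.4 to 169 CPM in Tgfbr1/2iSMCKO. Most of this came from Pecam1 (23964 counts over 12 libraries) and Esam (11635), with 1264 for the next, Vwf. Of the 10 markers, 9 had log2 fold changes above 0, with a median of 0.81. The 2 called rose: Cdh5 from 0.169 ± 0.192 to 1.26 ± 0.788 CPM (log2 fold change 2.97, adjusted p = 0.025) and Esam (0.84, adjusted p = 0.0398). Neither was called with a replicate block, and with counts summed per animal Cdh5 was called and Esam was not. Fibroblast markers summed to 62.8 to 166 and 22.6 to 247 CPM, and 1 of 9 fell, Serpinf1 (−1.58, adjusted p = 0.00646), with Cd34 at 0.45 and Dpep1 at 0.83 (adjusted p = 0.429 and 0.448). Leukocyte markers stayed within 6.63 to 14.9 and 7.79 to 24.0 CPM, and none of 8 tested was called by edgeR or DESeq2, with 2 at an unadjusted p under 0.05, Fcer1g (3.58, adjusted p = 0.171) and Cd68 (1.77, adjusted p = 0.291). No endothelial, fibroblast, or leukocyte marker was at 0 in all libraries, and the part of these cells in the results was not tested.

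By the course of log2 CPM over the 12 libraries, the genes most like Cdkn1a were Sh3pxd2a (Pearson r = 0.951), 5430431A17Rik (0.942), and Wdr95 (0.939) out of 12679 genes averaging 50 counts or more per library. Those most like Cdkn2b were Flrt2 (0.938), Vcan (0.936), and Eif2ak3 (0.936). For Ccnd2 they were Igsf9b (0.972), Pofut2 (0.969), and P2rx5 (0.969), and for Cdkn1b Ppp1r3c (0.95), Klhl3 (0.916), and Rasl11a (0.901). Ccnd1 was most like Me2 (0.91), Mtg1 (0.89), and Dcxr (0.881), and Myc was most like Gm26530 (0.905), Gprasp2 (0.867), and Ankmy2 (0.854). These values are descriptions, since the 12 libraries share animals, genotype, segment, and depth across all genes.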

How the data were processed

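RNA-seq of sorted GFP-positive SMCs from 3 GFPiSMC and 3 Tgfbr1/2iSMCKO mice gave 12 libraries, grouped by genotype and segment per the labels. The authors trimmed reads with Trim Galore, aligned them with HISAT2 to GRCm38, and quantified GENCODE M15 genes with StringTie. The values deposited by the authors are estimated counts, whole numbers without normalization between libraries, so no rounding was needed. How StringTie coverage became counts is not given in the sources used here, and counts of 2 (32279) were more frequent than counts of 1 (22574). Symbols and positions came from GENCODE M21 on the same build, which named 52489 of 52636 genes, and promoter sequences from RefSeq (GRCm38.p6).

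Counts were tested with edgeR 4.0.16 in R 4.3.3 (filterByExpr on 4 groups, TMM factors, quasi-likelihood F test, Benjamini-Hochberg adjustment over all genes tested). A gene was called at an adjusted p under 0.05. Adjusted p values are from edgeR unless DESeq2 (1.42.0) or limma (3.58.1) is named. The main fit had segment and genotype, a fit of summed counts took the animal as the replicate, and a fit of 4 group means gave the effects within segments, their difference, and the differences between segments. SEs were obtained by dividing log2 fold changes by the root of the F statistic. CPM are descriptive, and limits from 3 counts cover counting error only. In the fits of 12 libraries, p-values set differences against the spread between libraries, and both libraries of an animal counted as independent. In the fit of summed counts they set them against the spread between animals. The genes and lists were chosen with earlier results of these data known. Genes named outside the 10 are those called in each list (at most 5 per direction) and, with fewer than 2 called, the 2 others with the smallest p, plus the 3 most similar genes of each of the 10 with a mean of at least 50 counts. Genes named after their values were seen are marked. 1 marker list is not reported here. The edgeR fit of 12 libraries was tested on simulated counts, with all libraries drawn as independent. The other fits were not tested in this way. Alternatives were DESeq2, other scaling and low-count filters, no segment term, limma-voom with a random term per animal, a replicate block, each segment fitted alone, a test against a 2-fold change, and leaving out each animal. Plots were made in Python 3.11.15 (matplotlib 3.10.9).

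The ASC and DESC libraries that share a genotype and a number came from 1 animal, which pairs the segments. Deviations from the group means correlated across 9210 genes with r of 0.187, −0.242, and 0.024 in GFPiSMC and 0.0612, 0.377, and 0.661 in Tgfbr1/2iSMCKO. Numbers shared between genotypes name different animals.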

Additional observations from a re-analysis of the deposited data

How the results depend on the processing

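Over 12 libraries 2 of the 10 genes were called. DESeq2 called 4 (Cdkn1a, Cdkn2b, Cdkn1b, and Myc, with 9.11% of all genes called), and counts summed per animal gave 1 (451 of 24275 genes). A test against a 2-fold change gave 0 (137 of 22320 genes), and a replicate block gave 2 (994 of 22320). In the fit of summed counts, where 1 was called, DESeq2 called 4 (4.84% of all genes). A replicate block gave 0 (99 of 24275 genes), and leaving out 1 animal gave 0 to 2 (127 to 664 of all genes). In ASC, 0 were called and 3 with DESeq2 (909 of 22320 genes). In DESC, 2 were called, with 1 by library size only (383 of 22320 genes) and 1 to 2 without 1 animal (136 to 330 of all genes). The segment fitted alone gave 1 (150 of 19197 genes). A replicate block in that fit gave 0, where 14 of 19197 genes were called. No alternative called any of the 10 for the difference between segments or between segments of 1 genotype, where the animal as a block changed no call. Numbers did not pair the genotypes, with r between same-numbered libraries of −0.201, 0.216, and 0.0213 in ASC and 0.00943, −0.46, and −0.527 in DESC.

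Of the fitted values of the 10 genes under alternatives, 680 kept direction and side of the threshold, 15 lost and 11 gained a call, and 20 changed direction, all of these without a call. Ccnd1 in DESC became 0.12 by library size only. Mki67 between segments of GFPiSMC became −0.048 with the animal as a block. Leaving out 1 animal gave −0.26 to 0.21 for Ccnd1 in DESC. In ASC it gave −0.46 to 0.0072 for Ccnd2, −0.00031 to 0.91 for Cdk1, and −0.35 to 1.59 for Top2a. For the difference between segments it gave −0.43 to 0.043 for Ccnd2, −1.82 to 0.30 for Mki67, and −0.82 to 0.20 for Myc. Between segments it gave −1.64 to 0.48 for Mki67 and −0.43 to 0.26 for Myc in Tgfbr1/2iSMCKO, and −0.21 to 0.50 for Mki67 and −0.35 to 0.65 for Myc in GFPiSMC.
Library size only moved the median of all genes to 0.16. Counts of at most 81 per library limit Mki67, Top2a, and Cdk1, where SEs were 0.64 to 0.81, and the cause of changes with the settings was not tested.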

Other observations

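Genes linked to growth arrest other than the CDK inhibitors formed a list of their own. Of its 14 quiescence and anti-proliferative genes, 3 fell and none rose, with a median log2 fold change of −0.41. Klf2, a transcription factor of quiescence in other cell types, fell from 16.3 ± 6.90 to 3.75 ± 1.20 CPM (log2 fold change −2.13, adjusted p = 0.00108, past the threshold in 17 of 17 alternatives). Foxo1, a forkhead factor known to restrain the cell cycle, fell from 115 ± 14.8 to 76.1 ± 9.94 CPM (−0.59, adjusted p = 0.00912, 13 of 17), and 674 of its 8665 exon bases overlap Gm20402 on the other strand. Btg1, an anti-proliferative cofactor, fell from 230 ± 71.4 to 106 ± 51.5 CPM (−1.13, adjusted p = 0.0468, 6 of 17). With counts summed per animal, Klf2 was called, and Foxo1 and Btg1 were not. Klf4 had a log2 fold change of −0.87 (adjusted p = 0.0627) and was named after that value had been seen. The immediate early genes also had a median below 0 (−0.73, 16 of 20 below 0). The part of the response to cell isolation in the values of this list was not tested.

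Of 20 genes of the p53 pathway, 2 fell and 1 rose, with a median of 0.06, near that of all genes (0.04). Log2 fold changes were above 0 for 11 and below 0 for 9, and 7 had an unadjusted p under 0.05 (16.1% of all genes). Cdkn1a, which is also a p53 target, and Tnfrsf10b, a death receptor gene (15.8 ± 2.51 to 9.83 ± 1.12 CPM, log2 fold change −0.69, adjusted p = 0.0162), fell. With counts summed per animal, Cdkn1a was called and Tnfrsf10b was not. Trp53inp1, a p53-induced nuclear protein gene, rose from 92.5 ± 25.7 to 204 ± 36.0 CPM (1.14, adjusted p = 0.00174, past the threshold in 16 of 17 alternatives). The p53 targets Mdm2 and Ccng1 had log2 fold changes of −0.01 and 0.14 (adjusted p = 0.985 and 0.463, named after their values were seen). DESeq2 called 7 of the 20, against 3 by edgeR.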
